A study of Rattus norvegicus with 12 samples.

Results

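Amino acid transporters of the Slc1, Slc3, Slc7, Slc36, Slc38 and Slc43 families were measured in the hypothalamic arcuate nucleus (ARC) of adult offspring of control and of protein-restricted rat dams. Members were all genes whose symbol begins with these family names and a number and stands alone on a probe set of the array, a probe set being a group of short probes against 1 transcript. There were 37 such genes, on 46 probe sets, of 14217 genes named on the array. Of these, 36 encode carriers or carrier subunits, and the other is Slc7a6os, named for its place on the strand opposite Slc7a6, which is no carrier and is given apart. Where a gene had several probe sets, the brightest over all 12 arrays was used, and no filter on low values was applied, so all 37 were tested.

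The arrays held RNA from 6 control and 6 recuperated male Wistar rats, 1 animal per array, at 3 months of age. Controls were offspring of control dams and were also suckled by control dams. Both groups were set up on postnatal day 3, which is listed as the day of cross-fostering for every animal, controls included. Recuperated animals were offspring of dams fed 8% protein in pregnancy, were nursed by control dams from postnatal day 3, and grew up in smaller, all-male litters, so that maternal diet and litter size cannot be told apart. Both groups ate standard chow, and the ARC was cut from Cresyl Violet stained sections by laser and its RNA amplified before hybridisation to Affymetrix rat arrays. Levels below are deposited log2 expression values, and differences are recuperated minus control after subtraction of each array's median, which lay between 6.21 and 6.30.

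Amino acids cross membranes mainly through carriers, of which those of the Slc1 family take up glutamate and small neutral amino acids, those of the Slc38 family move glutamine, and several Slc7 carriers work as the light chain of a dimer whose heavy chain is encoded by Slc3a1 or Slc3a2. In brain, astrocytes clear released glutamate and return glutamine to neurons, and Slc7a5 with Slc3a2 carries leucine and tryptophan, the precursor of serotonin, across the blood-brain barrier.

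Because dietary protein was the exposure, promoters of the carriers were searched for the CARE core TGATGNAA on both strands, the element through which the factor ATF4 induces carriers when amino acids are short. Windows from 250 bases before to 50 after a gene's start were taken from RefSeq (build GRCr8) and were held for 28 of the 36 carriers, some with several starts, 32 windows in all. The core stood in 3 of 32 windows, those of Slc1a4, Slc7a1 and Slc38a1, and in 3.98% of all 33469 windows. It began 235, 30 and 142 bases before the start, respectively. The 60 bases round each match are shown 5′ to 3′ with the core in capitals, which reads on the opposite strand in Slc1a4.
Slc1a4 (chr14:98761753-98761812, minus strand): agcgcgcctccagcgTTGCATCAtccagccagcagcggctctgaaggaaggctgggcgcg
Slc7a1 (chr12:11664432-11664491, plus strand): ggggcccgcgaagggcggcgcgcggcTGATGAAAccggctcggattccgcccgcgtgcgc
Slc38a1 (chr7:129681510-129681569, minus strand): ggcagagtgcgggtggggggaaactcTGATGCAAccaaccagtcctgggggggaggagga
In each of these 3 genes the groups lay closer together than their own arrays did, with log2 differences of 0.02 for Slc1a4 (exact permutation test, p = 0.933), 0.11 for Slc7a1 (exact permutation test, p = 0.574) and -0.02 for Slc38a1 (exact permutation test, p = 0.898). A match is a description of the letters, not of a site in use.

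Slc7a8 and Slc3a2 were the carriers with the smallest p in limma, as described further on, whereas the exact permutation test gave its smallest p to Slc36a2. Their promoter windows are shown for that reason, with capitals for the core of the antioxidant response element, TGACNNNGC on both strands, which was also searched. That core stood in 6 of the 32 windows and in 12.1% of all windows, and the E-box CACGTG in 7 of 32 and 6.42%. The Slc7a8 window held no match to any of the 3 motifs. Slc3a2 has another window in RefSeq, also without a match, which is not shown.
Slc7a8 (chr15:32212666-32212965, minus strand): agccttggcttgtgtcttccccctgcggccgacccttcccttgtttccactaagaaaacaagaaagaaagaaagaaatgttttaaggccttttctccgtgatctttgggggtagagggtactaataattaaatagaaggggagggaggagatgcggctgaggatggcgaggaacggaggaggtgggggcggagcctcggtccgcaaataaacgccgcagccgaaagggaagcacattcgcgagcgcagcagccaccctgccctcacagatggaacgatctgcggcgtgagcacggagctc
Slc3a2 (chr1:215039621-215039920, minus strand): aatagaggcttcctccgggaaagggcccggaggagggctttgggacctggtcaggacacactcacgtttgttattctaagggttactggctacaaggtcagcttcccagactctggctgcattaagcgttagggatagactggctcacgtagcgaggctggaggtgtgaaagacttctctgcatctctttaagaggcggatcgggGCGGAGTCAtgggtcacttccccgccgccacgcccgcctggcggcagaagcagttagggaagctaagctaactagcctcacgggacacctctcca

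All 12 arrays were kept in the main fit, and 1 stood apart. Between arrays of a group, Pearson's r over all probe sets lay between 0.959 and 0.985. In a list of 11 measured ARC genes, 8 were brighter than the array median throughout, whereas the Pomc probe set was dimmer than it in every animal, and Agrp had no probe set to itself. On recuperated array 4 the mean of that list was 1.16 above the array median, against 3.10 to 3.37 on the other arrays, while a list of 5 genes of the neighbouring ventromedial nucleus (VMN) was at 2.71, against -0.49 to 0.95. Over all arrays the mean of the ARC list was 3.31 ± 0.03 in control (SD, n = 6), as against 2.85 ± 0.84 in recuperated animals (SD, n = 6; exact permutation test, p = 0.0173), and 10 of its 11 genes had the lower mean in the latter. The lower mean did not rest on recuperated array 4 alone. Recuperated arrays 2, 3, 5 and 6, at 3.10 to 3.20, also lay below every control array (3.27 to 3.34), whereas recuperated array 1, at 3.37, lay above them. Because recuperated array 4 stood farthest from the rest, the count of carriers at the threshold is also given without it. Excess of 3′ over 5′ signal of actin, which grows as RNA breaks down, lay between 1.25 and 1.72 in control and between 1.04 and 1.96 in recuperated arrays on the log2 scale.

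Of the 36 carriers, 17 were brighter than the array median in all 12 animals (47.2%, against 40.3% of all probe sets), 13 lay below it on all arrays, and 6 lay above it on some. Because binding varies from probe to probe, levels of different genes are not ranked, and a level below the median is no proof of absence. Between arrays, the SD of a carrier over all 12 had a median of 0.32, against 0.31 for all probe sets, from 0.13 for Slc38a4 to 0.72 for Slc7a12.

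No carrier differed between control and recuperated animals after adjustment over all 31042 probe sets (limma, smallest adjusted p = 0.999), and none of the 31042 probe sets did (1071 at an unadjusted p under 0.05). At the methods' threshold of 1.3-fold and unadjusted P under 0.05, taken here from limma, 1 of 36 carriers was lower in recuperated arrays, Slc7a8, against 1.27% of all probe sets, and 0 were higher, against 1.2% (2.47% in either direction). Slc3a2 was the other carrier at P under 0.05, so that 2 of 36 lay there (5.56%, against 3.45% of all probe sets). Positive log2 differences were found in 16 carriers and negative ones in 20 (44.4% positive, against 43.4% of all probe sets), with a median of -0.03 both for the carriers and for all probe sets. For 0 of 36 carriers did the arrays of the groups not overlap, against 0.155% of all probe sets. Without recuperated array 4 the count at the threshold was 2 lower, Slc7a8 and Slc1a5, and 1 higher, Slc38a6.

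The 95% confidence interval of the difference gives the precision these arrays allowed. For 34 of 36 carriers it lay within 2-fold in either direction, the exceptions being Slc38a6 and Slc7a5. For 6 of 36, it lay within 1.3-fold on the brightest probe set of the gene. Slc1a1 was among them, at -0.02 (standard error 0.16), but its other probe set had a difference of 0.14 (standard error 0.17). Among these 6, Slc38a4 and Slc43a1 lay below the array median on every array. Weak signals are compressed in these values, so a narrow interval there says little about the precision of expression.

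**Figure D1:**
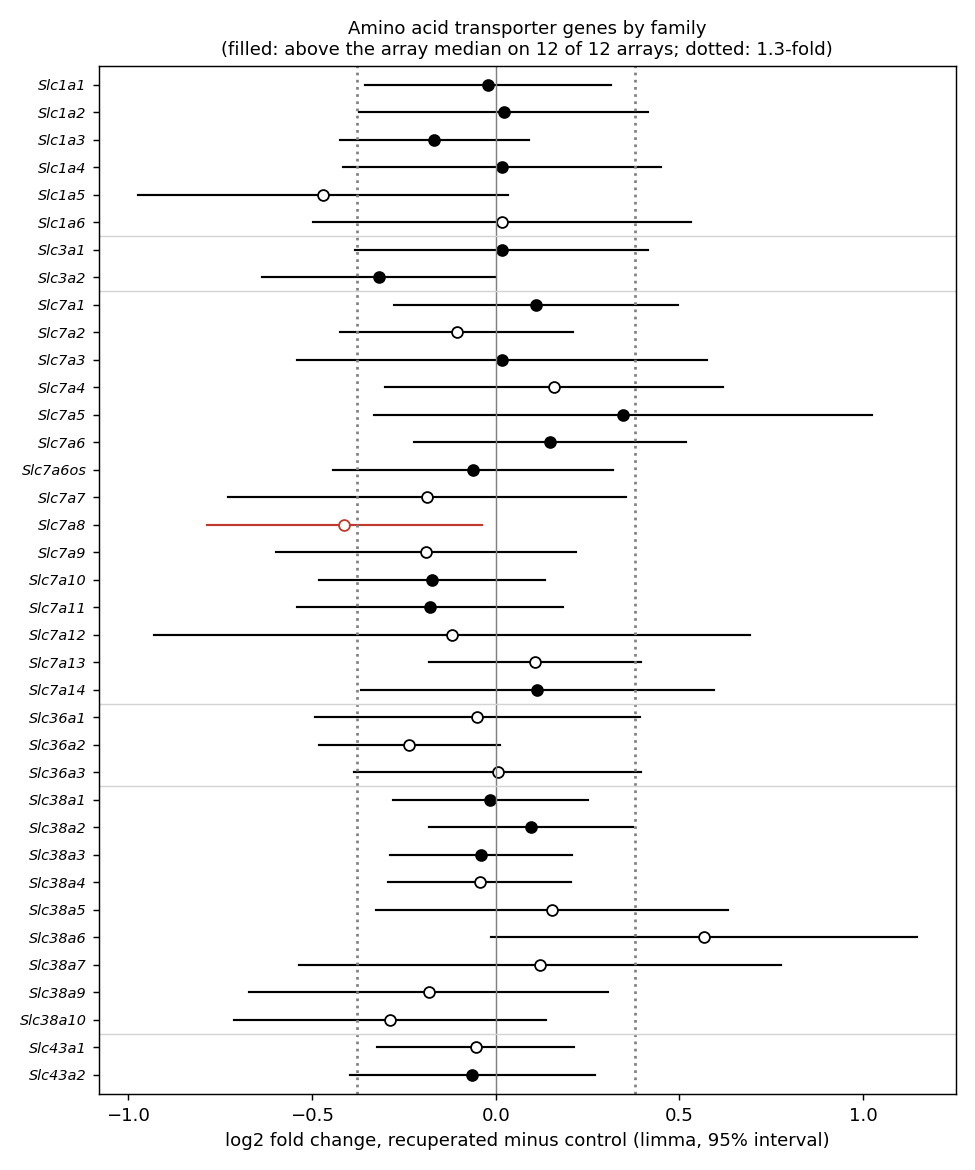
Difference of recuperated from control arrays (log2) for the 37 members, with its 95% confidence interval from limma, by family, on the horizontal axis. Filled points mark members brighter than the array median in all 12 animals, dotted lines mark 1.3-fold, and red marks Slc7a8, which alone met both 1.3-fold and P under 0.05.

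Both heavy chains were brighter than the array median in all 12 animals. Slc3a2, which encodes the heavy chain known as 4F2hc or CD98, read from 9.11 to 9.44 (median 9.32) in control and from 8.51 to 9.41 (median 9.01) in recuperated arrays. Of the recuperated arrays, 4 lay below every control array after subtraction of the array medians, whereas recuperated array 1 was near the top of the control range and recuperated array 4 was the lowest of all. The log2 difference was -0.32 (standard error 0.15), 1.25-fold lower and thus short of 1.3-fold (exact permutation test, p = 0.0368; adjusted p = 0.999 from limma). Recuperated arrays read lower than the control mean in 5 of 6 animals. The difference was -0.22 without recuperated array 4, with an unadjusted limma P of 0.114, and -0.40 without recuperated array 1, where it passed the threshold. With all arrays, the unadjusted limma P was 0.0557 without subtraction of array medians, 0.0642 after quantile normalization and 0.0867 with the animal number as a block. It stayed under 0.05 with array quality weights, with the mean of all probe sets and after removal of dim probe sets, as did P of the methods' t-test.

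Slc3a1 encodes rBAT, the heavy chain of the cystine carrier of kidney and gut. It read from 10.91 to 11.49 (median 11.16) in control and from 10.78 to 11.89 (median 11.11) in recuperated arrays, with the highest value in recuperated array 4. Its log2 difference was 0.02 (95% interval -0.38 to 0.41; exact permutation test, p = 0.935). The light chains known to pair with it, Slc7a9 and Slc7a13, lay below the array median on every array, at 2.44 ± 0.34 (SD, n = 12) and 2.14 ± 0.19 (SD, n = 12), respectively.

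Among the 6 light chains of Slc3a2, 4 had lower and 2 higher means in recuperated arrays, and Slc7a8 alone met the threshold. Slc7a8, which encodes the neutral amino acid carrier LAT2, read from 6.08 to 7.05 (median 6.61) in control and from 5.94 to 6.38 (median 6.25) in recuperated arrays. Control arrays 4 and 6 were the highest, at 7.05 and 6.97, and control arrays 1 and 5, at 6.08 and 6.26, lay among the recuperated arrays, so that the groups overlapped. All 6 recuperated arrays lay below the control mean, and 2 lay below every control array once array medians were subtracted, as in all such counts. The log2 difference was -0.41 (standard error 0.17), or 1.33-fold lower (exact permutation test, p = 0.0498; adjusted p = 0.999 from limma). Its probe set was brighter than the array median in only 7 of 12 animals. It met the threshold without recuperated array 4, at -0.43, but missed it when 1 of control arrays 3, 4 and 6 or recuperated arrays 3 and 6 was left out, where the log2 difference lay between -0.40 and -0.32.

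**Figure D2:**
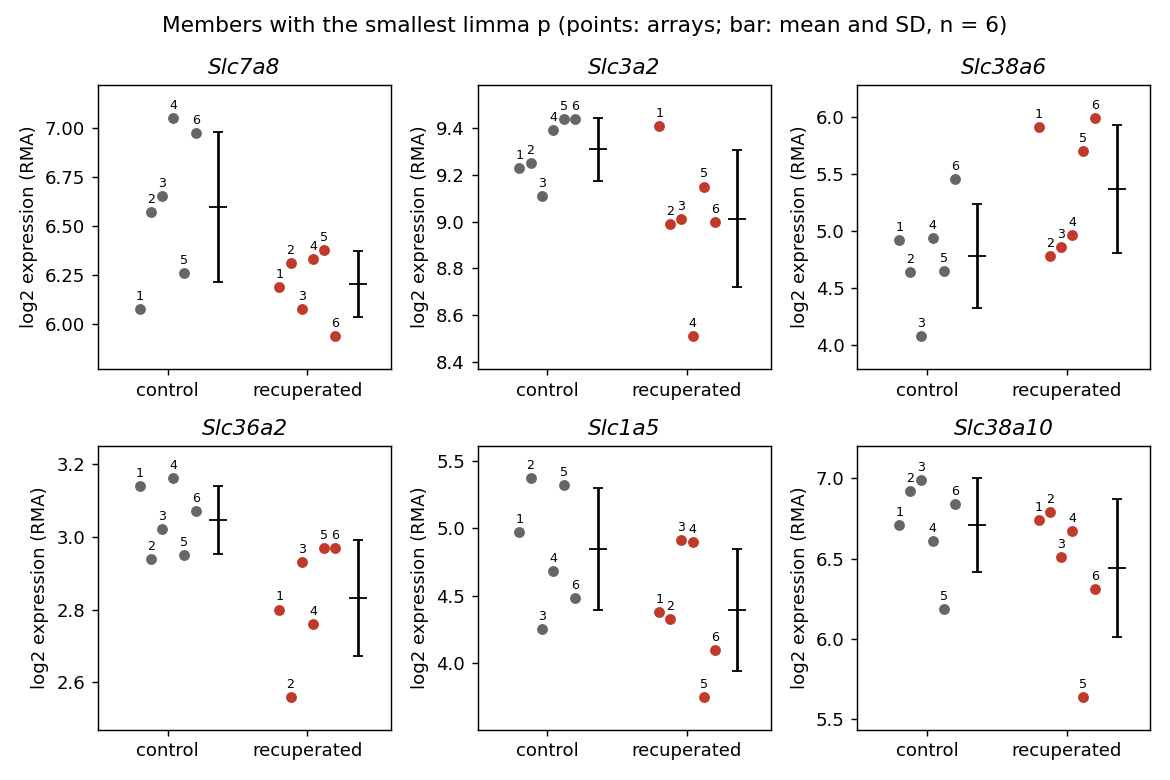
Log2 expression of the 6 members with the smallest limma p in single animals, with grey points for the 6 controls, red points for the 6 recuperated animals and array numbers beside them. Bars show group means and SD. The groups overlap in every panel, and Slc3a2 is lowest in recuperated array 4.

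Slc7a5 encodes LAT1, the carrier of large neutral amino acids at the blood-brain barrier. It read from 6.92 to 9.15 (median 8.15) in control and from 8.03 to 9.05 (median 8.56) in recuperated arrays. Both its lowest value, in control array 6, and its highest, in control array 5, were in the control group. The log2 difference of 0.35 (95% interval -0.33 to 1.02) was smaller than the spread between arrays (exact permutation test, p = 0.364). It was 0.0993 without control array 6 and 0.53 without control array 5. Slc7a11 encodes xCT, which exports glutamate in exchange for cystine. It read from 10.76 to 11.13 (median 10.99) in control and from 10.29 to 11.21 (median 10.81) in recuperated arrays, which extended past the control range on both sides (exact permutation test, p = 0.307). Slc7a10 encodes Asc-1, a carrier of D-serine and glycine. Its levels were 7.39 to 7.79 (median 7.63) in control and 7.01 to 7.80 (median 7.46) in recuperated arrays (exact permutation test, p = 0.232). Slc7a6 and Slc7a7, which exchange cationic for neutral amino acids, were at 7.35 ± 0.31 and 6.23 ± 0.48 (SD, n = 12), with log2 differences of 0.15 (standard error 0.17) and -0.19 (standard error 0.25).

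The other Slc7 genes include the cationic amino acid carriers of arginine and lysine. Slc7a1 and Slc7a3 lay above the array median on every array, at 9.29 ± 0.32 and 8.43 ± 0.49 (SD, n = 12), and Slc7a2 lay below it, at 4.32 ± 0.22 (SD, n = 12). All 3 probe sets of Slc7a1 had positive log2 differences, from 0.08 to 0.17, none of which passed the threshold. Slc7a14 read 9.58 ± 0.41, Slc7a4 6.46 ± 0.41 and Slc7a12 3.80 ± 0.72 (SD, n = 12). None of these 6 genes differed beyond the spread between arrays (exact permutation tests, the smallest p = 0.474, that of Slc7a2). Slc7a6os read 7.36 ± 0.32 (SD, n = 12), with a log2 difference of -0.06 (standard error 0.18).

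Carriers of glutamate lay close together in the 2 groups. Slc1a2, which encodes GLT-1, the main glutamate carrier of astrocytes, read from 9.81 to 10.63 (median 10.36) in control and from 10.07 to 11.04 (median 10.22) in recuperated arrays. Its log2 difference was 0.02 (95% interval -0.37 to 0.41; exact permutation test, p = 0.926), and recuperated array 4 was the only array above the control range. Slc1a3, which encodes the astrocyte carrier GLAST, read from 11.67 to 12.08 (median 11.87) in control and from 11.51 to 11.96 (median 11.71) in recuperated arrays, of which 3 lay below every control array. Its difference of -0.17 (95% interval -0.42 to 0.09) did not pass the test (exact permutation test, p = 0.113), and all 3 of its probe sets had negative differences, from -0.17 to -0.08. Slc1a1, the neuronal carrier EAAC1, read from 8.55 to 9.06 (median 8.60) in control and from 8.41 to 9.09 (median 8.75) in recuperated arrays (exact permutation test, p = 0.944). Its other probe set differed in sign, at 0.14 (standard error 0.17) against -0.02 (standard error 0.16). Slc1a6, known from cerebellar Purkinje cells, lay below the array median on every array, at 5.11 ± 0.43 (SD, n = 12).

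Of the neutral amino acid carriers of the family, Slc1a4 (ASCT1) read 9.68 ± 0.35 (SD, n = 12). Slc1a5 (ASCT2), which exchanges glutamine, lay below the array median on every array, from 4.25 to 5.37 (median 4.83) in control and from 3.75 to 4.91 (median 4.36) in recuperated arrays. Recuperated arrays 5 and 6 were the lowest and the other recuperated arrays lay within the control range. Its log2 difference of -0.47 (standard error 0.23), 1.39-fold lower, missed P under 0.05 (exact permutation test, p = 0.102). It met the threshold when 1 of control arrays 3 and 6 or recuperated arrays 3 and 4 was left out, at -0.54 to -0.59.

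In the Slc38 family, the glutamine carriers of neurons and astrocytes varied little on the brightest probe set of each gene. Slc38a1, a system A carrier of neurons, read from 11.04 to 11.58 (median 11.28) in control and from 11.18 to 11.44 (median 11.30) in recuperated arrays, with a log2 difference of -0.02 (95% interval -0.28 to 0.25). All 3 of its probe sets had negative differences, down to -0.19. Slc38a2, the system A carrier that amino acid shortage induces in many cells, read from 8.97 to 9.34 (median 9.25) in control and from 8.96 to 9.67 (median 9.29) in recuperated arrays, highest in recuperated array 4 (exact permutation test, p = 0.433). Slc38a3, the system N carrier of astrocytes, read from 8.15 to 8.45 (median 8.23) and from 7.94 to 8.43 (median 8.27), respectively (exact permutation test, p = 0.693). On these probe sets, the intervals of Slc38a1, Slc38a2 and Slc38a3 all lay within 1.3-fold. For Slc38a1 this holds for the brightest probe set only, since its dimmer ones had standard errors of 0.19 and 0.27, against 0.12.

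Slc38a6 had the largest positive difference of any carrier. It read from 4.08 to 5.45 (median 4.79) in control and from 4.78 to 5.99 (median 5.33) in recuperated arrays, and lay below the array median on all 12. The values of recuperated arrays 1, 5 and 6 exceeded those of all controls and the other recuperated arrays lay within the control range. The log2 difference was 0.57 (standard error 0.27), or 1.48-fold, and missed P under 0.05 (exact permutation test, p = 0.0758; adjusted p = 0.999 from limma). It passed the threshold under several other settings. The difference was 0.59 both without the subtraction of array medians and after quantile normalization between arrays, and 0.65 with array quality weights. It was 0.65 to 0.71 when 1 of control array 6 and recuperated arrays 2, 3 and 4 was left out. With the animal number as a block it also passed, at 0.57, but these numbers did not pair the arrays, as described further on.

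Slc38a9, the lysosomal arginine sensor of the mTORC1 pathway, lay below the array median on every array. It read from 4.11 to 5.50 (median 5.11) in control and from 4.49 to 5.41 (median 4.75) in recuperated arrays (exact permutation test, p = 0.481). Slc38a10 read from 6.19 to 6.99 (median 6.78) and from 5.64 to 6.79 (median 6.59), with a log2 difference of -0.29 (95% interval -0.71 to 0.14; exact permutation test, p = 0.208). Slc38a7, a lysosomal glutamine carrier, read from 4.63 to 5.97 (median 5.66) and from 4.91 to 6.70 (median 5.69). Slc38a4 and Slc38a5 lay below the array median throughout, at 2.10 ± 0.13 and 3.75 ± 0.41 (SD, n = 12).

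The Slc36 genes encode proton-coupled carriers of small neutral amino acids. Slc36a1, found on lysosomes, read from 5.71 to 6.84 (median 6.13) in control and from 5.84 to 6.44 (median 6.17) in recuperated arrays, above the array median on 6 of 12. Slc36a2 read from 2.94 to 3.16 (median 3.05) in control and from 2.56 to 2.97 (median 2.87) in recuperated arrays. After subtraction of the array medians 4 of 6 recuperated arrays lay below every control array. The difference of -0.24 (standard error 0.11), 1.18-fold lower, had an unadjusted p of 0.013 by the exact permutation test. It was short of 1.3-fold and of P under 0.05 in limma (adjusted p = 0.999), and the probe set lay below the array median on every array. Slc36a3 read from 1.89 to 2.65 (median 2.06) and from 1.91 to 2.79 (median 2.01), respectively.

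In the Slc43 family, Slc43a2, which encodes LAT4, a facilitator of branched-chain amino acids, read from 9.29 to 10.12 (median 9.87) in control and from 9.46 to 10.05 (median 9.80) in recuperated arrays. Its log2 difference was -0.06 (95% interval -0.40 to 0.27), and its dimmer probe set had the other sign, at 0.10 (standard error 0.20). Slc43a1, which encodes LAT3, lay below the array median on every array, at 2.89 ± 0.17 (SD, n = 12).

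Recuperated array 4, in which the mean of the ARC list was lowest and that of the VMN list highest, also held many extremes of the carriers. Not every gene of the ARC list was lowest there, and Pdyn was highest, at 11.55 against 10.90 to 11.27 on the other arrays. Of 36 carriers, 10 had their highest value there (27.8%, against 13.0% of all probe sets) and 4 their lowest (11.1%, against 14.6%). The highest included Slc7a14 at 10.54, Slc7a3 at 9.24, Slc7a1 at 9.92, Slc1a2 at 11.04 and Slc3a1 at 11.89. The lowest were Slc1a4 at 9.13, Slc7a7 at 5.35, Slc3a2 at 8.51 and Slc38a3 at 7.94. In bulk tissue, fewer cells of a type and less RNA per cell cannot be told apart, and the part of neighbouring tissue in these values was not tested.

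**Figure D3:**
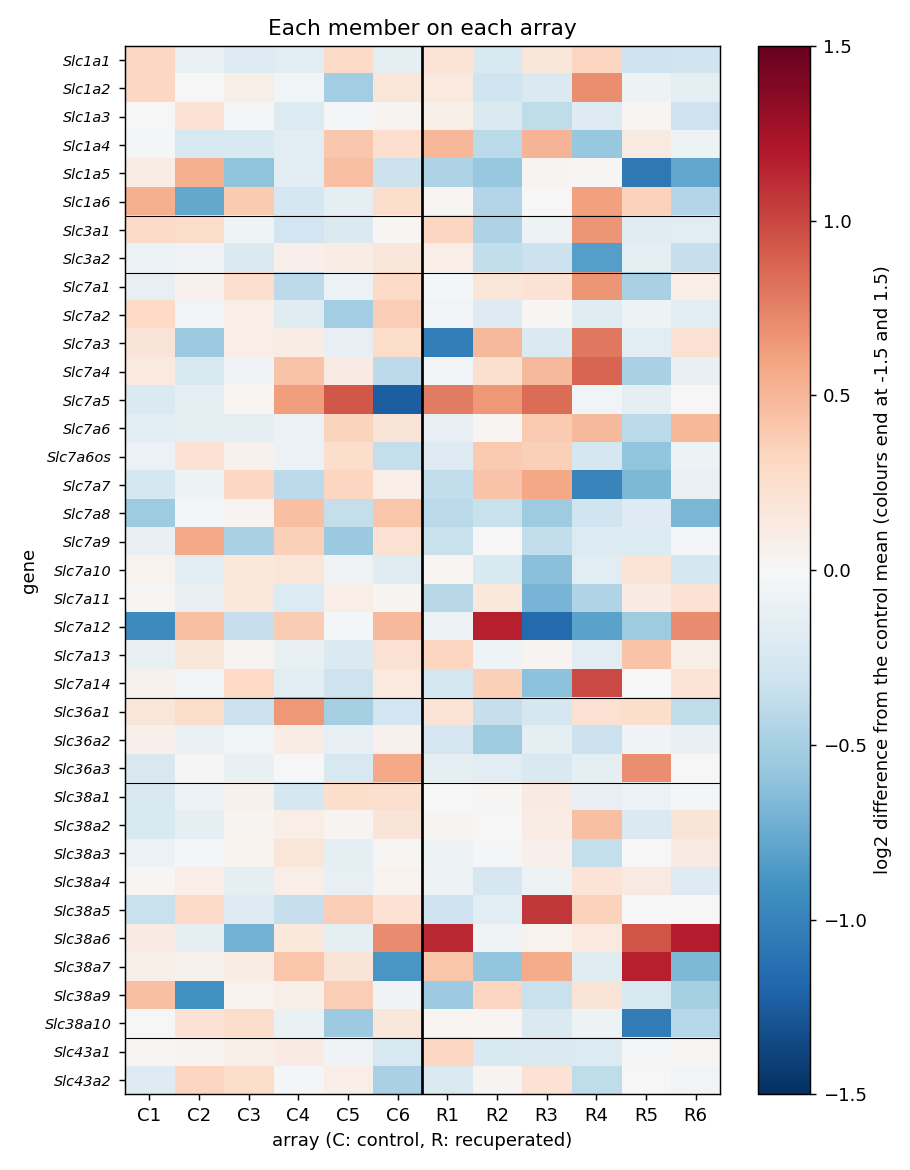
Log2 difference of each member (rows, by family) on each array (columns, C1 to C6 control, R1 to R6 recuperated) from the mean of the control arrays, after subtraction of array medians. In column R4, 10 of the 36 carriers have their highest and 4 their lowest value.

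Whether carriers known from a cell type followed that cell type's markers was tested over the 12 arrays in 11 relations, with marker levels taken as the mean of 11 astrocyte, 11 endothelial or 8 neuronal genes. No relation passed adjustment over the 11 relations (smallest adjusted p = 0.115 for Pearson's r and 0.286 for Spearman's rho). Slc1a2 ran against the astrocyte markers (r = -0.70, permutation test p = 0.0105; rho = -0.53, p = 0.078), which rested on control array 5 and recuperated array 4, since r was -0.20 without them. Slc7a11 ran with the astrocyte markers (r = 0.59, permutation test p = 0.0471; rho = 0.61, p = 0.0397) and r was 0.46 without the same arrays. Slc7a5 ran with the endothelial markers (r = 0.62, permutation test p = 0.0273; rho = 0.56, p = 0.0629), with r = 0.45 without control array 6 and recuperated array 6, the farthest from the median. Within groups, r was -0.72 in control and -0.74 in recuperated arrays for Slc1a2, 0.39 and 0.64 for Slc7a11, and 0.61 and 0.72 for Slc7a5. For the other 8 relations, of Slc1a3, Slc38a3 and Slc7a10 with astrocyte, Slc3a2, Slc38a5 and Slc7a1 with endothelial, and Slc1a1 and Slc38a1 with neuronal markers, r lay between -0.41 and 0.43.

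**Figure D4:**
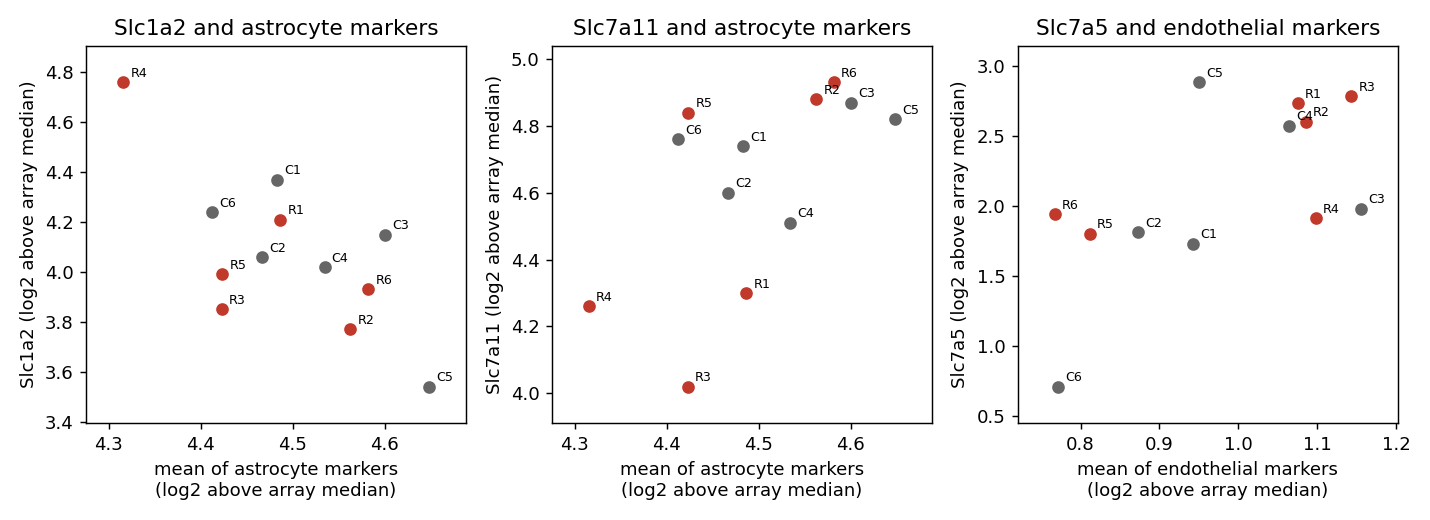
Log2 level above the array median of Slc1a2, Slc7a11 and Slc7a5 (vertical axes) against the mean of astrocyte or endothelial markers (horizontal axes), with each array as a point, grey for controls and red for recuperated animals. Slc1a2 is highest in R4 and lowest in C5, the arrays on which its r of -0.70 rests.

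Apart from the ARC list, no marker list differed between groups at p under 0.05. Astrocyte markers stood at 4.52 ± 0.09 above the array median in control and at 4.47 ± 0.10 in recuperated animals (SD, n = 6 each; exact permutation test, p = 0.301), and all 11 lay above the array median on every array. Endothelial markers were at 0.96 ± 0.14 and 1.00 ± 0.16 (SD, n = 6 each; exact permutation test, p = 0.654), and microglial markers at 0.84 ± 0.11 and 0.64 ± 0.31 (SD, n = 6 each; exact permutation test, p = 0.18). Neuronal markers were at 4.78 ± 0.11 and 4.82 ± 0.32 (SD, n = 6 each; exact permutation test, p = 0.812). Oligodendrocyte, tanycyte, VMN, meningeal and blood lists gave exact permutation p from 0.34 to 0.905.

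Other genes of amino acid handling were counted in the same way. Of 17 other measured carriers of amino acids, such as the glycine and vesicular glutamate and GABA carriers, 0 met 1.3-fold and P under 0.05, with 10 positive and 7 negative differences. Of 12 enzymes of glutamate and glutamine, 0 did, with 7 positive and 5 negative. Of 29 genes of amino acid sensing and of the amino acid response, among them Atf4, Eif2ak4 and Asns, 0 did, with 13 positive and 16 negative and a median of -0.01. These counts stand against 1.2% higher and 1.27% lower among all probe sets. Slc32a1, the vesicular GABA carrier, had a log2 difference of -0.62 and missed P under 0.05 in limma (P = 0.0611; exact permutation test, p = 0.0173). It read 8.50 in recuperated array 4, against 10.05 to 10.88 on the other arrays.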

How the data were processed

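Total RNA of the laser-captured ARC was amplified and hybridised to Affymetrix Rat Genome arrays, 1 animal per array. The authors deposited log2 expression values made with RMA, which corrects background, equalises arrays by quantile normalization and summarises probes by median polish, so that weak signals are compressed towards each other. Expression Console of Affymetrix and RMA stand in the submitters' processing notes, GeneSpring in the paper's methods, and versions are not given in the sources used here for the former. The methods kept only genes called by GCOS and GC-RMA as well, which were not used here. The table held 31099 probe sets, of which 57 were Affymetrix controls and were left out.

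Each array's own median was taken off the deposited log2 values, after the methods' centring of each chip. Groups were compared over 31042 probe sets with lmFit and eBayes of limma 3.58.1 (R 4.3.3), without covariates, with Benjamini-Hochberg adjustment. For single genes and marker means, all 924 arrangements of the arrays were enumerated in a two-sided exact permutation test (smallest possible p 0.00216), and relations with marker means by 100000 permutations, two-sided. Further steps ran in Python 3.11.15 (scipy 1.17.1, numpy 2.4.6, matplotlib 3.10.9, pandas 2.3.3). By the platform annotation, 20826 probe sets had a single symbol, 436 had several and 9780 had none, and the identifiers of all 37 members were found in RefSeq.

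The members, gene lists and motifs were chosen with earlier results of these data known. Values per group were given for members past 1.3-fold and P under 0.05, the 6 others with the smallest p, the brightest of each family, members fixed by name and members with an array far from the rest. The fit was tested on simulated data of the same size, in which 50 probe sets each were shifted by 0.5, 1, 2 or 3 on the log2 scale, and after adjustment 5, 38, 48 and 50 of them were found, beside 9 false calls. Alternatives were the methods' t-test, array quality weights, a block for the animal number, quantile normalization, no subtraction of medians, removal of dim probe sets, averaging a gene's probe sets, folds from linear means, and fits without each array in turn. Arrays give no read depth, and their number limits the precision. The methods count litters, and the labels number animals.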

Additional observations from a re-analysis of the deposited data

Results flagged for a closer look

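In 4 cases 1 array lay far from the others of its group, where the gap to its neighbour took a larger share of the group's range than Dixon's 95% value for 6 samples allows. Slc36a3 read 2.65 in control array 6, against 1.89 to 2.12 in the other control arrays, and 2.79 in recuperated array 5, against 1.91 to 2.14. Slc38a7 read 4.63 in control array 6, against 5.60 to 5.97. Slc38a9 read 4.11 in control array 2, against 4.94 to 5.50. Chance flags about 1 in 20 groups, and 37 genes were examined in 2 groups each. All of these genes lay below the array median on at least 11 of 12 arrays.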

How the results depend on the processing

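Slc7a8 was lower at the threshold in every fit over all arrays except that with the animal number as a block, where the log2 difference of -0.41 missed P under 0.05 in limma. Lower members at the threshold numbered 1 as reported, 2 with array quality weights and 0 with the replicate block, and 0 to 2 when single arrays were left out (0 without control array 4 or recuperated array 6). Higher members numbered 0 as reported, 1 with array quality weights, without subtraction of medians, after quantile normalization and with the replicate block, each time Slc38a6, and 0 to 1 when arrays were left out. Over all probe sets, 371 higher and 395 lower became 243 and 263 with the methods' t-test, which called 0 after Benjamini-Hochberg adjustment (1063 before it), 118 and 150 among the 15622 probe sets brighter than the array median on 6 arrays or more, 342 to 476 higher and 352 to 622 lower when arrays were left out, the last without recuperated array 1. The animal numbers did not pair the arrays, since deviations of same-numbered arrays correlated at -0.16 to 0.08, and the block gave 452 higher and 411 lower. The median difference of the members stayed below 0 in all fits, from -0.06 to -0.01 when arrays were left out. This was not particular to the members. The median over all probe sets was -0.0283 as reported, -0.0083 without subtraction of medians and -0.0103 after quantile normalization, against -0.04, -0.02 and -0.0109 for the members. Limma called no member after adjustment in any setting. Directions that turned were all of differences smaller than their standard errors, among them Slc38a7 at 0.12 (standard error 0.31). With array quality weights these were Slc1a2 (-0.10), Slc3a1 (-0.11), Slc38a1 (0.0281), Slc38a3 (0.0141) and Slc38a7 (-0.13), with the mean of all probe sets Slc1a1 (0.0592) and Slc43a2 (0.0183), and without subtraction or after quantile normalization Slc38a1 (0.005 and 0.0043). When arrays were left out, the difference ranged from -0.089 to 0.043 for Slc1a1, -0.11 to 0.0847 for Slc1a2, -0.11 to 0.11 for Slc3a1, -0.15 to 0.0807 for Slc36a1, -0.13 to 0.12 for Slc36a3, -0.0657 to 0.0383 for Slc38a1, -0.0753 to 0.0227 for Slc38a3, -0.0903 to 0.28 for Slc38a7 and -0.16 to 0.0007 for Slc43a2. The causes were not tested.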
